A study of Mus musculus with 6 samples.

Results

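Metallothioneins and zinc transporters are the genes by which an intestinal cell takes up, stores, releases and senses zinc. Here they comprise 10 genes out of 23699 rows of the deposited gene tables: the metallothioneins Mt1 and Mt2, the zinc sensor Mtf1, the exporters Slc30a1, Slc30a2, Slc30a4 and Slc30a10, and the importers Slc39a4, Slc39a5 and Slc39a14. The genes were chosen by the FPKM values of Mt1 in these same libraries, which were known to be higher in the mutants. Differences between mutant and control for these 10 genes are therefore descriptions without a test. The question asked was whether the rise of Mt1 was shared by Mt2 and by the transporters. All 10 genes passed the filter on low values.

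The libraries were made from whole duodenum of 6-week-old mice on a mixed background, 3 control and 3 mutant, 1 library each. Controls 1 and 2 carried Nkx2.2flox/+ with Rosa26Tomato/+, and control 3 carried Nkx2.2flox/+ alone. The 3 mutants carried Nkx2.2flox/TN with Villin-Cre/+ and Rosa26Tomato/+. All 6 animals thus had a floxed allele of Nkx2.2, a transcription factor of enteroendocrine cell fate, and 5 of them a Tomato reporter allele. Villin-Cre is a Cre recombinase active in intestinal epithelium, so other cells of the wall kept the floxed copy, and the TN allele was present in every tissue of the mutants. The TN allele, the presence of Cre and the number of intact Nkx2.2 copies cannot be told apart with these groups.

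In the intestine, zinc from food enters the enterocyte through importers of the Slc39 (ZIP) family, and exporters of the Slc30 (ZnT) family pass it to the blood or into vesicles. Metallothioneins are small, cysteine-rich proteins that bind the surplus zinc, and copper as well. When free zinc rises, the transcription factor encoded by Mtf1 binds metal response elements in the promoters of Mt1, Mt2 and Slc30a1 and raises their transcription. Mt1 and Mt2 lie side by side and are usually induced together.

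The tissue was duodenal by its markers. The 10 enterocyte markers and the 5 duodenal markers were above 0 in every library, with Pdx1, a regulator of duodenal and pancreatic identity, between 59.9 and 83.1 FPKM (a fragment density scaled to transcript length and to the size of the library). Of the ileal markers, the bile acid binding protein Fabp6 was at most 1.3 FPKM. Depth, read from the deposited confidence intervals, ran from 14206893 to 25909530 implied reads per library. Nkx2-2, the targeted gene, ranged from 1 to 1.27 FPKM in controls and from 0.666 to 0.748 FPKM in mutants, which is a partial check of the labels since a TN allele may still be transcribed. Xist and the Y-linked genes marked control 3 and mutant 3 as female and the other 4 animals as male. The same pair had the most pancreatic acinar RNA, with 16 marker genes summing to 15053 and 16607 FPKM, against 2619 to 7345 FPKM in the other 4. The sum does not follow each marker. Ctrb1, a pancreatic protease gene among the 16, measured 4.61, 87.3 and 2171 FPKM in controls and 727, 648 and 3027 FPKM in mutants, a wider range than that of the sum. All 16 acinar markers also had a positive log2 difference between mutant and control, with a median of 3.24 and a range of 0.09 to 3.55. In limma 0 of them passed an adjusted p of 0.05, as did 0 of all 15864 rows.

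The coding sequences of Mt1 and Mt2 are shown because reads of a pair of close relatives can be assigned to the wrong one, which would blur a difference between them. Both are 186 bases long in the GENCODE annotation of the mm9 assembly, with 61 codons before the stop, 20 of them for cysteine. Capitals mark the 38 positions at which they differ.
Mt1: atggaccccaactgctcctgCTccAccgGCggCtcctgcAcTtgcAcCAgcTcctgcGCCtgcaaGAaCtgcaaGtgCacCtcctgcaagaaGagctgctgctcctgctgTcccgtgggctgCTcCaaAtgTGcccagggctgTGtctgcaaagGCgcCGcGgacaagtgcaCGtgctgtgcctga
Mt2: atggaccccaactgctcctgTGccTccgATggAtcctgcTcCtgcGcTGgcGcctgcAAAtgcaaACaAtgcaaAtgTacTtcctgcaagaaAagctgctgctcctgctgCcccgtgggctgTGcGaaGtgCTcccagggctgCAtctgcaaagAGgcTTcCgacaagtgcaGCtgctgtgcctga
The identity was 79.6% over the coding part. The longest exact run shared by the full transcripts was 20 bases. Mt1 shared at most 27 bases with any other protein-coding gene, in Mt3, and Mt3 was at most 1.73 FPKM in these libraries. No source used here gives the read length.

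Mt1 was abundant in controls and 2.94 times as high in mutants by its mean FPKM. The gene lies on mm9 chromosome 8, from 96702989 to 96704227 on the plus strand, has 3 exons, and had 1 RefSeq transcript in the tables, NM_013602. Controls 1, 2 and 3 measured 319, 301 and 376 FPKM. Mutants 1, 2 and 3 measured 907, 863 and 1160.2 FPKM. Every mutant thus lay above every control, and the lowest mutant was more than double the highest control.

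Group means of Mt1 were 332 ± 39.2 FPKM in controls and 977 ± 161 FPKM in mutants (SD, n = 3 each). On the log2(FPKM + 0.1) scale the difference was 1.55 (SE 0.15), beside a median of −0.05 over all 15864 rows tested. The deposited confidence intervals of the groups were far apart, with an upper bound of 391 FPKM in control 3 and a lower bound of 843 FPKM in mutant 2. At least 1490 implied reads stood behind each value, so counting error was at most 2.59% of it.

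Mt2 did not share this pattern. Mt2, on the same strand of chromosome 8 from 96696518 to 96697467, had 1 transcript, NM_008630. Its values were 78.6, 121 and 146 FPKM in controls and 34.2, 83.5 and 180.4 FPKM in mutants. The groups overlapped, with the lowest and the highest of the 6 libraries both among the mutants.

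The mean of Mt2 was 115 ± 34.1 FPKM in controls and 99.4 ± 74.4 FPKM in mutants (SD, n = 3 each). The log2 difference was −0.48 (SE 0.57). Its sign rested on mutant 1, since it was 0.14 without that library and −1.06 without mutant 3. Counting error was at most 7.11% of a value, in mutant 1 with 198 implied reads, so the spread of Mt2 between mice was wider than its counting error. The spread within groups was 0.908 on the log2 scale, and 1.39% of the 6630 rows with a mean of at least 10 FPKM had a larger one. For Mt1 the same spread was 0.2, exceeded by 18.2% of those rows.

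**Figure D1:**
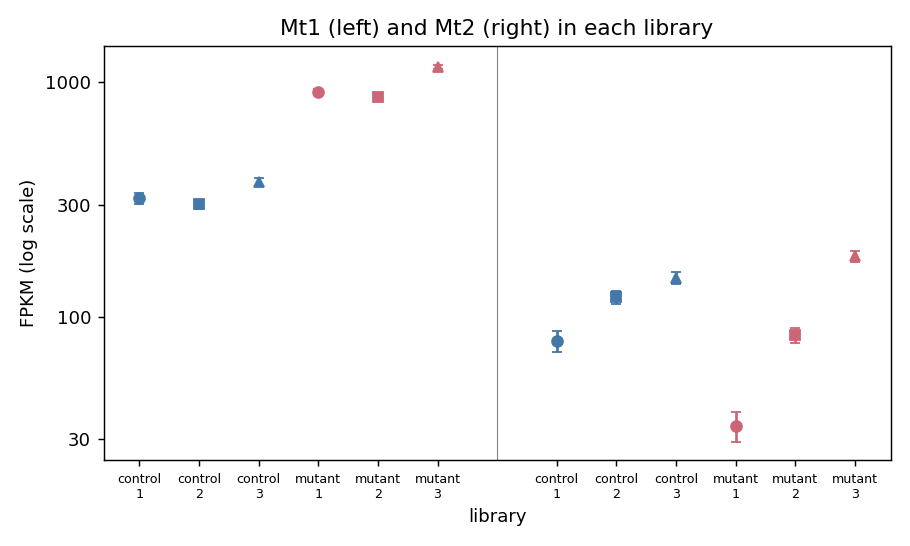
FPKM of Mt1 (left) and Mt2 (right) in each library on a log axis, with the deposited confidence interval as the bar, controls in blue and mutants in red. The 3 mutants lie between 863 and 1160.2 FPKM for Mt1, above the controls at 301 to 376 FPKM, while the groups overlap for Mt2.

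Within each library the balance of the pair can be read from their FPKM values, which are per length. Mt1 stood at 4.05, 2.49 and 2.57 times Mt2 in control 1, 2 and 3. In mutant 1, 2 and 3 it stood at 26.5, 10.3 and 6.43 times Mt2. The smallest mutant ratio was above the largest control ratio. Since Mt1 entered both the choice of genes and this ratio, the separation is a description.

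The sum of both genes was 397, 422 and 522 FPKM in controls and 941, 946 and 1341 FPKM in mutants. Mt1 made up 71.3% to 80.2% of that sum in controls and 86.5% to 96.4% in mutants. The sum was thus higher in every mutant than in every control. As Mt1 made up most of the sum and entered the choice of genes, this separation is a description too. Mt2 made up 34.2 FPKM of the sum in mutant 1 and 180.4 FPKM in mutant 3.

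The promoters of the pair are shown because both are classic targets of Mtf1. The stretches are the 250 bases before the RefSeq start site on GRCm38.p6, plus strand, chr8:94178839-94179088 for Mt1 and chr8:94172368-94172617 for Mt2. Capitals mark matches to the core of the metal response element, searched as TGCGCNC and TGCACNC on both strands.
Mt1: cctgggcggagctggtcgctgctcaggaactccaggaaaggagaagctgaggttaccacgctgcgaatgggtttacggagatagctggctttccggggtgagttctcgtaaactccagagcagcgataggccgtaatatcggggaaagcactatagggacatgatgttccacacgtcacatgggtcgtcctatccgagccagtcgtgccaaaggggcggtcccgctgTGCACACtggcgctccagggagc
Mt2: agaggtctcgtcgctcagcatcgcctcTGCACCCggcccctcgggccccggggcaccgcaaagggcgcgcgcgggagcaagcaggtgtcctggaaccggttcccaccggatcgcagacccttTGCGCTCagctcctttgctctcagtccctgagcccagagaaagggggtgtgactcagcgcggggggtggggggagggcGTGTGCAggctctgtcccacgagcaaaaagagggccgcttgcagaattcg
Over the full window of 300 bases, which runs on for 50 bases past the start site, Mt1 had 3 matches and Mt2 had 4. Those of Mt1 began at −23, 3 and 21 from the RefSeq start site, and those of Mt2 at −223, −128, −50 and 5. The start of transcription was not measured here, and bases outside the window were not searched. Positions and counts thus hold for the annotated start and this window, and do not compare the whole promoters of the pair. Of 32851 RefSeq promoter windows of this length, 25.7% held 1 match or more, 1.97% held 3 or more and 0.52% held 4 or more. Of the 10 genes 8 had a window. The others held 3 matches for Slc30a10, of which 2 overlap on opposite strands, 3 for Slc30a4, 2 each for Slc30a1 and Slc30a2, 1 and 0 in the 2 windows of Slc39a5, and 0 for Mtf1. A match is a run of letters and not a measured binding site.

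Mtf1, the zinc-sensing transcription factor, was low and even across libraries. On chromosome 4 from 124479793 to 124527044, it measured 4.48, 4.23 and 4.97 FPKM in controls and 4.08, 4.59 and 4.84 FPKM in mutants. Its groups overlapped, with a log2 difference of −0.02 (SE 0.11). The activity of this factor depends on zinc binding and is not read by its transcript level.

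Among the exporters, Slc30a1 (ZnT1) is the one that moves zinc out across the plasma membrane and is itself a known target of Mtf1. On chromosome 1 from 193730660 to 193737126, it measured 12.4, 9.78 and 10.4 FPKM in controls and 11, 8.13 and 10.4 FPKM in mutants. The groups overlapped and the lowest value belonged to mutant 2. The means were 10.8 ± 1.36 and 9.83 ± 1.5 FPKM (SD, n = 3 each), with a log2 difference of −0.14 (SE 0.14).

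Slc30a2 (ZnT2) loads zinc into vesicles of secretory cells, among them pancreatic acinar and Paneth cells. On chromosome 4 from 133898961 to 133910399, it measured 36.8, 26.9 and 32.3 FPKM in controls and 39.9, 29.7 and 48.5 FPKM in mutants. Mutant 3 was the highest, and the groups overlapped. The log2 difference was 0.28 (SE 0.19), and it was 0.12 without mutant 3 and 0.47 without mutant 2.

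Slc30a4 (ZnT4), an exporter of intracellular vesicles, is the gene mutated in lethal milk mice. On chromosome 2 from 122506975 to 122528399, it measured 21.3, 21.1 and 26.2 FPKM in controls and 18.3, 19.7 and 20.4 FPKM in mutants. Every mutant lay below every control, by a narrow gap, and the log2 difference was −0.22 (SE 0.1). Without control 3, the highest control, it was −0.12.

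Slc30a10, which exports mainly manganese, was the most abundant exporter of the 4. On chromosome 1 from 187278727 to 187292640, it measured 108, 87.4 and 78.4 FPKM in controls and 91.3, 100.4 and 73.4 FPKM in mutants. The groups overlapped, with the lowest value of each group in replicate 3, and the log2 difference was −0.05 (SE 0.16).

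Among the importers, Slc39a4 (ZIP4) takes up dietary zinc at the apical membrane, and its human counterpart is mutated in acrodermatitis enteropathica, an inherited zinc deficiency. On chromosome 15 from 76442813 to 76447282, it measured 100.3, 102 and 106 FPKM in controls. In mutants it measured 115, 115 and 95.2 FPKM, so 2 mutants lay above the controls and 1 below. The log2 difference was 0.07 (SE 0.09), and in the 4 male libraries, a comparison added after seeing the data, it was 0.18.

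Slc39a5 (ZIP5), an importer of the basolateral membrane of enterocytes and acinar cells, lies on chromosome 10 from 127832988 to 127838280. It measured 89.3, 93 and 84.4 FPKM in controls and 94.7, 103 and 103 FPKM in mutants. Every mutant lay above every control, and the shift was small beside that of Mt1, with means of 88.9 ± 4.32 and 100.4 ± 4.96 FPKM (SD, n = 3 each). The log2 difference was 0.18 (SE 0.07).

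Slc39a5 and Slc39a14 had 3 RefSeq transcripts each, and the other 8 genes had 1. The most abundant transcript of Slc39a5, NM_001136237, had means of 56.8 ± 3.96 FPKM in controls and 65.2 ± 6.63 FPKM in mutants (SD, n = 3 each), and its groups overlapped, at 52.7 to 60.6 and 58.1 to 71.2 FPKM. NM_028092 had means of 27 ± 0.9 and 31.6 ± 2.78 FPKM, and every mutant lay above every control, at 28.4 to 33.3 against 26.3 to 28 FPKM. Both forms thus had a higher mean in mutants, with the larger step in FPKM in the abundant one. The minor form NM_028051 went the other way, at 4.43 to 5.64 FPKM in controls and 3.46 to 3.73 FPKM in mutants. Transcript values divide shared reads by a model, so these differences are less certain than the gene totals.

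Slc39a14 (ZIP14), which imports zinc, iron and manganese and responds to inflammation in liver, lies on chromosome 14 from 70703274 to 70751231. It measured 48, 49.2 and 81 FPKM in controls and 45, 65.9 and 69.2 FPKM in mutants. The groups overlapped, with the highest value in control 3 and the lowest in mutant 1, and the log2 difference was 0.03 (SE 0.25). Its sign changed with single libraries, at 0.28 without control 3 and −0.1 without control 1. The transcript with the highest mean in both groups was NM_001135151, with 47.9% to 55.8% of the total in controls and 40.5% to 64.9% in mutants. In mutant 3 it was second, at 28 FPKM against 30.2 FPKM for NM_001135152.

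**Figure D2:**
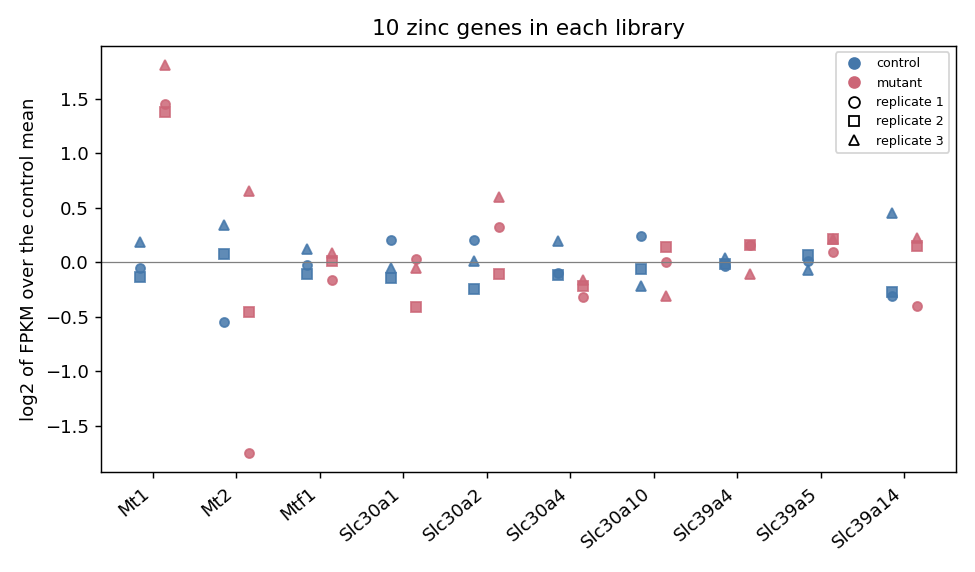
The log2 ratio of each library's FPKM to the control mean for the 10 genes, controls in blue and mutants in red, with a marker shape for each replicate number. Mt1 is the gene whose mutants stand far above the controls, Mt2 has the widest scatter, and the transporters scatter around 0.

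Over the 10 genes, 5 had a positive and 5 a negative log2 difference, with a median of 0.01 against −0.05 over all rows tested. In 2 genes, Mt1 and Slc39a5, every mutant lay above every control, and in 1, Slc30a4, every mutant lay below. Such separation held for 3.13% of the 15864 rows upwards and for 9.92% downwards. In limma with Benjamini-Hochberg adjustment, 0 of the 10 genes passed an adjusted p of 0.05, as did 0% of all rows, with 922 rows (5.81%) at an unadjusted p under 0.05. With the replicate number as a block 2 rows passed (0.0126%), Chga and Mt1. The authors' deposited table called 7 of 18541 genes (0.0378%), Mt1 among them. As the choice of the genes used this comparison, nothing is read from these counts.

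The authors' deposited table, made from read counts with DESeq, gave a ratio of mutant to control of 3.18 for Mt1 and 0.841 for Mt2. In that table the ratio was 1.17 for Slc39a5, 1.29 for Slc30a2 and 0.885 for Slc30a4. For the remaining 5 genes the ratios of the authors' deposited table ran from 0.952 for Slc30a1 to 1.1 for Slc39a4.

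By level in controls, per length, Mt1 came first, followed by Mt2, Slc39a4, Slc30a10, Slc39a5, Slc39a14, Slc30a2, Slc30a4, Slc30a1 and Mtf1. The ranges of Mt2, Slc39a4, Slc30a10 and Slc39a5 overlapped from each to the next, so the order among these 4 is not beyond their spread. The other neighbours did not overlap in controls. Genes further apart in the order can still overlap: Slc39a14 reached 81 FPKM in control 3, above 78.6 FPKM for Mt2 in control 1 and 78.4 FPKM for Slc30a10 in control 3. In mutants Slc39a14 and Slc30a2 overlapped as well.

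Mt1, Mt2, Mtf1, Slc30a4 and Slc39a14 had the highest value of each group in replicate 3, and Slc30a10 had the lowest. These are the 2 female libraries and also the pair with the most acinar RNA. Mt1 was 376 FPKM in control 3 against 301 and 319 FPKM in the other controls, and 1160.2 FPKM in mutant 3 against 863 and 907 FPKM in the other mutants. Mt2 was 146 and 180.4 FPKM in that pair against 34.2 to 121 FPKM in the 4 male libraries, and Slc39a14 was 81 and 69.2 FPKM against 45 to 65.9 FPKM. Slc30a10 was 78.4 and 73.4 FPKM in the pair against 87.4 to 108 FPKM in the males. Sex and acinar RNA move together here, cannot be told apart in replicate 3, and their part in these values was not tested.

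With the acinar level as a covariate the log2 difference was −0.96 for Mt2 and −0.26 for Slc39a14, and it was 1.43 for Mt1. In the 4 male libraries alone, an added comparison, it was 1.51 for Mt1 and −0.87 for Mt2. The difference in Mt1 was thus 1.51 without the female pair and 1.55 with it. Among the males the acinar markers still summed higher in mutants, at 5611 and 7345 FPKM, than in controls, at 2619 and 4310.4 FPKM. Group and acinar RNA therefore cannot be told apart in the male comparison. Paneth markers, 8 genes above 0 in every library, summed to 17007 to 22589 FPKM in controls and 17117 to 23155 FPKM in mutants. Smooth muscle markers summed to 628 to 888 FPKM in controls and 465 to 619 FPKM in mutants, with a negative log2 difference in 6 of 6 genes. In limma 5 of them were at an unadjusted p under 0.05, beside 4.32% of all rows lower. In 4 of them every mutant lay below every control, beside 9.92% of all rows. None of them passed an adjusted p of 0.05 in limma, as did 0 of all 15864 rows. The part of these markers in the results was not tested. In whole tissue, fewer cells of a type and less RNA per cell cannot be told apart.

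The other metallothioneins were near the limit of detection. Mt3, known mainly from brain, measured 1.73, 1.16 and 0.769 FPKM in controls and 1.46, 0.828 and 0.699 FPKM in mutants, with overlapping groups. Mt4, a form of stratified epithelia, was listed at 0 in 5 libraries and at 0.66 FPKM in mutant 1. The log2 difference of Mt3 was −0.26 (SE 0.35, adjusted p = 0.883 in limma).

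The zinc transporters as a family differed by less than 1.5-fold between the group means. Of the 24 ZnT and ZIP genes together, the 7 above included, 21 passed the filter, and Slc30a3, Slc30a8 and Slc39a12 did not. Ratios of mutant to control means ran from 0.823 to 1.23, so 0 of 21 reached 1.5-fold in either direction, and the log2 differences had a median of 0 with a range of −0.27 to 0.28. Besides the genes already described, 1 had groups that did not overlap: Slc39a13 (ZIP13), a transporter known from connective tissue, at 3.65, 3.78 and 3.32 FPKM in controls and 3.18, 2.89 and 2.78 FPKM in mutants. Its log2 difference was −0.27 (SE 0.11) with an adjusted p of 0.786 in limma. Over all rows tested, 9.92% had every mutant below every control, so nothing is read from this separation.

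Of the 6 other exporters 4 were tested and of the 11 other importers 10. In limma 0 of them passed an adjusted p of 0.05, as did 0 of all 15864 rows. Slc39a13 was the 1 gene at an unadjusted p under 0.05, beside 5.81% of all rows, so nothing is read from this count. Slc30a7, Slc30a5 and Slc30a6, which fill the early secretory pathway with zinc, had log2 differences of −0.12, 0.07 and 0.06. Slc39a7 (ZIP7), which releases zinc from the endoplasmic reticulum, and Slc39a1 had 0.11 and 0.08. Both were well expressed, at 51.4 ± 2.48 and 54.6 ± 5.23 FPKM in controls (SD, n = 3).

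**Figure D3:**
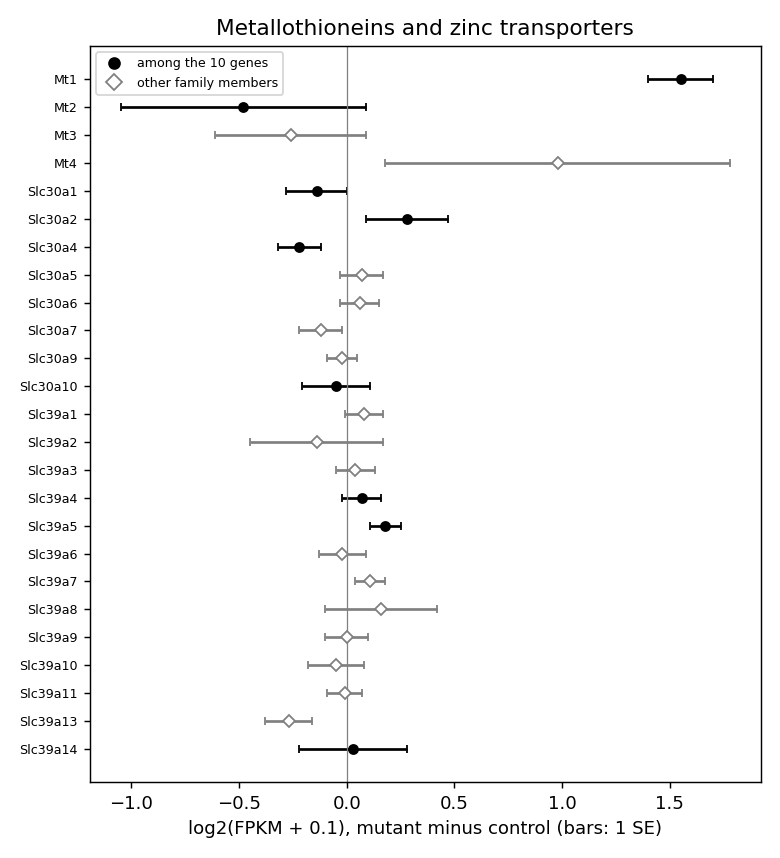
The log2(FPKM + 0.1) difference, mutant minus control, with 1 SE, for the metallothioneins and the zinc transporters that passed the filter, filled for those among the 10 genes. Mt1 stands at 1.55, Mt4 rests on 1 library, and the transporters lie between −0.27 and 0.28.

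None of the genes around Mt1 on chromosome 8 showed the same step between groups. Of 17 other rows that start within 400 kb, 14 passed the filter, and their log2 differences ran from −0.49 to 0.98, the latter for Mt4. Nup93, a nuclear pore gene 35.5 kb away, measured 12.3, 12.6 and 10.5 FPKM in controls and 10.6, 11.3 and 9.63 FPKM in mutants, a log2 difference of −0.17 (SE 0.1). In 0 of the 14 did every mutant lie above every control, and in 1, Gnao1, every mutant lay below, at 2.71 to 3.1 FPKM against 3.22 to 3.28 FPKM. Over all rows tested the shares were 3.13% above and 9.92% below, so nothing is read from these counts. Nup93 and Gnao1 were named for their place and their separation after the values were seen.

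**Figure D4:**
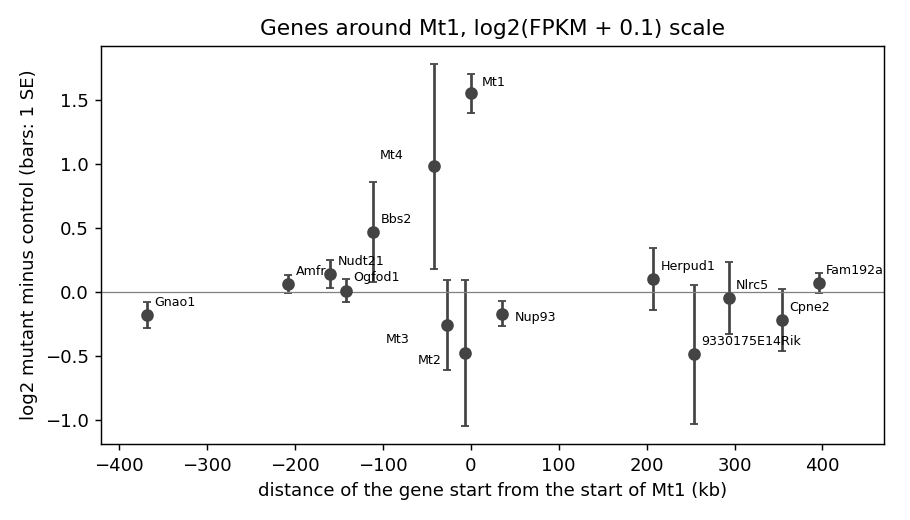
The log2(FPKM + 0.1) difference, mutant minus control, with 1 SE, against the distance in kb from the start of Mt1, for tested genes within 400 kb. Mt1 stands at 1.55, and Mt2, 6.5 kb before it, stands at −0.48.

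Metallothionein genes are also known to respond to copper, oxidative stress, glucocorticoids, inflammatory cytokines and heat shock, so lists of such genes were examined. Of their members 0 passed an adjusted p of 0.05 in limma, as did 0 of all 15864 rows. At an unadjusted p under 0.05, 1.49% of all rows were higher in mutants and 4.32% lower. That overall split of 237 higher and 685 lower became 516 and 395 with trimmed mean scaling.

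Copper handling genes, 13 tested, had a median log2 difference of −0.04. One was lower at an unadjusted p under 0.05, the copper importer Slc31a1, at 101, 114 and 124 FPKM in controls and 102, 92.8 and 96.1 FPKM in mutants (log2 −0.22, SE 0.09, adjusted p = 0.786 in limma). The copper chaperone Atox1 was at 177, 198 and 206 FPKM in controls and 265, 213 and 211 FPKM in mutants, with every mutant above every control and a log2 difference of 0.24 (SE 0.12). Steap2, a metalloreductase, had −0.31.

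Oxidative stress genes, 14 tested, had a median of −0.1 and 0 members at an unadjusted p under 0.05 in either direction. Gsta2, a glutathione transferase, Gclc, an enzyme of glutathione synthesis, and Slc7a11, a cystine transporter, had log2 differences of −0.58, −0.16 and −0.2. For Slc7a11 every mutant lay below every control, at 0.605 to 0.774 FPKM against 0.776 to 0.887 FPKM.

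Glucocorticoid-responsive genes, 10 tested, had a median of 0.05 and a range of −0.29 to 0.96, with 1 higher and 1 lower at an unadjusted p under 0.05. The genes named next are those with the smallest unadjusted p, and the member at 0.96 is not among them. Cdkn1a, a cell cycle inhibitor, was at 101, 92.6 and 94.2 FPKM in controls and 113, 104 and 107 FPKM in mutants (log2 0.17, SE 0.07, adjusted p = 0.786 in limma). Klf9, a transcription factor, was at 13.3, 13.3 and 16.5 FPKM in controls and 11, 12.3 and 11.7 FPKM in mutants (log2 −0.29, SE 0.11, adjusted p = 0.786 in limma). Errfi1, a feedback inhibitor of growth factor receptors, had 0.28. The median of the list was 0.27 without control 3, −0.14 without control 2 or without mutant 3, and −0.4 with the acinar covariate.

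Cytokine and acute phase genes, 10 of 12 tested, had a median of −0.16 and 0 members at an unadjusted p under 0.05. Haptoglobin (Hp), the acute phase gene Saa3 and the transcription factor Cebpd had log2 differences of −0.65 (SE 0.36), −0.72 (SE 0.42) and −0.33 (SE 0.31). Hp was at most 0.5 FPKM, near the filter on low values. Saa3 was lowest in mutant 1, at 0.931 FPKM against 2.42 and 3.29 FPKM in the other mutants. The median turned to 0.08 without control 3 and to 0.01 without mutant 2, and it was −0.59 without control 2, −0.64 without mutant 3 and −0.65 with the acinar covariate. Heat shock genes, 8 tested, had a median of −0.08 and likewise 0 members, with −0.34 for Hspb1, 0.11 for Hspa5 and −0.54 for Hspa1b. Their median turned to 0.19 without control 3 and to 0.06 without mutant 2, and it was −0.24 without control 1, −0.22 without control 2, −0.28 without mutant 3 and −0.53 with the acinar covariate.

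Zinc-binding proteins of the epithelium, 14 of 15 tested, had a median of 0.05 with 1 member lower at an unadjusted p under 0.05. That was the carbonic anhydrase Car4, at 81.6, 68.6 and 56.7 FPKM in controls and 63, 35.4 and 36.8 FPKM in mutants, with overlapping groups (log2 −0.65, SE 0.24, adjusted p = 0.786 in limma). The alcohol dehydrogenase Adh1 had 0.3, and Crip1, a cysteine-rich intestinal protein that binds zinc, had 0.2 at 2666 ± 403 FPKM in controls and 3041 ± 143 FPKM in mutants (SD, n = 3 each). The median of this list was −0.03 without control 3 and 0.19 without control 2. That of the oxidative stress genes was 0.06 with the acinar covariate, and that of the copper genes 0.02.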

How the data were processed

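RNA from the first 2 cm of duodenum, with an integrity number above 8, was made into TruSeq libraries, per the labels' protocols. The authors worked on build mm9 and used DESeq, Cufflinks and TopHat after CASAVA 1.8.2, per the submitters' processing notes. No source used here gives their other versions or the read length. Per the file headers, the authors' gene and transcript tables hold FPKM with confidence bounds, and the transcript tables also coverage, the mean read depth. The authors' deposited DESeq table holds means of normalized counts (a signal), their ratio, its log2 value and p-values.

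Rows averaging 0.1 FPKM or more were put on the log2(FPKM + 0.1) scale and fitted in limma 3.58.1 (R 4.3.3) with eBayes and its trend option, without rescaling, covariate or block. Benjamini-Hochberg adjustment ran over all 15864 rows, and 0.05 was the threshold. The upper bound lies 2 standard errors above each FPKM, which gives the implied reads; below 500 implied reads, 88.2% to 88.5% of the values of single-transcript genes lay within 0.05 of a whole number. Counting error covers sampling of reads only. The labels do not name litters, so p-values measure the spread between these samples.

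The genes and lists were chosen with earlier results of these data known. Named genes were the 10 members and, in each of 9 other lists, the 3 with the smallest unadjusted p, plus the 5 rows most correlated with Mt1 and with Mt2. Deviations of same-numbered samples from their group means had correlations of 0.106, 0.207 and 0.389 over rows, for numbers 1, 2 and 3. Control 1 had a higher correlation with mutant 2 (0.127) than with mutant 1, so number 1 shows no pairing of its own. The replicate number comes from the titles, and the female pair shares number 3. It was used as a block in an alternative fit only. The main fit, which gave the SE of each of the 10 genes, was unpaired. Alternatives were other pseudocounts (1 and 0.01), filters, scalings, weights and covariates, a block, limma voom on implied reads, and leaving out each library. Coordinates are 1-based on mm9 unless GRCm38.p6 is named.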

Additional observations from a re-analysis of the deposited data

How the results depend on the processing

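For each of the 10 genes, the log2 difference moved by less than the spread within groups in all 19 alternatives. For many of these it could not do otherwise, so nothing is read from it. Leaving out a single library cannot move a group mean that far. The filters, the fit without trend, the block and the sex covariate leave the difference itself unchanged. The log2 difference of Mt1 stayed between 1.42 and 1.64 and was positive in each alternative. That of Mt2 ran from −1.06 to 0.14, so the direction of Mt2 is not set by these libraries. The median over the 10 genes stayed between −0.07 and 0.09. The count of rows past an adjusted p of 0.05 was 0 in the main fit and 2 with the replicate block (Chga and Mt1), which changed no call of the other 9 genes, and 1 with the sex covariate (Mt1). Leaving out single libraries gave 0 to 3 such rows, with 2 without control 2, 3 without mutant 1 and 2 without mutant 2, none of them among the 10 genes. Rows higher at an unadjusted p under 0.05, 237 in the main fit, were 516 with trimmed mean scaling, 360 with quantile normalization, 445 with the replicate block and 379 with the acinar covariate. Rows lower, 685 in the main fit, were 395 with trimmed mean scaling, 431 with quantile normalization and 381 in the male libraries alone. With 1 library left out they ran from 187 to 362 (higher, 362 without control 2) and from 390 to 895 (lower, with 390 without control 1, 444 without mutant 1 and 430 without mutant 3). The cause was not tested. No direction is read for Mt3, at most 1.73 FPKM, or Mt4, listed at 0 in 5 libraries.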

Other observations

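Over the 6 libraries, the row most like Mt1 by Pearson correlation of log2(FPKM + 0.1), among rows with a mean of at least 1 FPKM, was Eif6 (r = 0.991), a ribosome assembly factor. Eif6 measured 147, 149 and 149 FPKM in controls and 177, 175 and 183 FPKM in mutants. The next were Ndufa3 (0.975), 2610002J02Rik (0.969), Pdlim2 (0.961) and Kctd14 (0.96). All 5 share the step between the groups with Mt1, at a smaller size, with log2 differences of 0.26 to 0.44. Mt2 had r = −0.166 with Mt1, and 6177 of 12569 rows had a higher value. Of the other 9 genes Slc39a5 was the closest to Mt1 at 0.792, with 237 rows higher.

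The rows most like Mt2 were Echdc3 (0.981), Tra2b (0.98), Gm6548 (0.978), Nap1l1 (0.976) and Tmem206 (0.971). Echdc3 measured 1.82, 2.75 and 2.9 FPKM in controls and 1.3, 1.94 and 3.23 FPKM in mutants, with its highest value of each group in replicate 3, as for Mt2. Mtf1 had r = 0.77 with Mt2 and Slc39a14 had 0.701. With 6 libraries such values are descriptions.

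Of the 1037 rows with a mean of at least 100 FPKM, 21, Mt1 among them, had a log2 difference at least as large as that of Mt1, with acinar genes such as Cel, Cela1 and Cpa1 above it. By the ratio of means, which weighs the high libraries more, 4 of the 1037 were at least 2-fold higher in mutants, and in 1 of these, Mt1, every mutant lay above every control. Of the 6630 rows with a mean of at least 10 FPKM, 35 had a log2 difference at least as large as that of Mt1. Of the same rows 3, Mt1 included, were at least 2-fold higher by their means with every mutant above every control. The genes were chosen with this rise of Mt1 in view, so its place in these counts is a description and nothing is read from it.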
